A study of Drosophila melanogaster with 24 samples.

Results

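Male and female heads of flies on the high-fat diet (HFD) were compared, 3 libraries of each sex, which are 6 of the 24 libraries in the series. The members were taken from the labels as every library of a head on HFD, with replicates numbered 2, 3 and 4 in both sexes. All flies were adults of the w1118 strain, whose white mutation removes the eye pigment. The labels give their age as 5 to 7 days. By the study's methods, young adults were kept for a day on corn meal food and then 7 days on HFD with 20% coconut oil. Those times together exceed the labelled age, so the age at freezing is uncertain. About 100 heads were pooled for each library after frozen flies were vortexed, and the replicates are labelled as biological replicates. The only other libraries used for tests were 6 heads of the same strain on the regular diet (RD), again 3 of each sex.

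In Drosophila, the protein Sxl is made in females and steers splicing of the sex determination genes, and it blocks translation of msl-2 there. Males make MSL2, and the MSL complex, which carries the noncoding RNAs roX1 and roX2, raises transcription of the single male X chromosome. A large part of the known sex-biased expression of the head comes from the fat body around the brain, which secretes yolk proteins and other factors in females and has its own male-biased enzymes. A pool of heads mixes these cells with brain, eye, muscle and cuticle, so that fewer cells of a type and less RNA per cell cannot be told apart.

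The libraries held 14053734 to 20151435 counts. Neuronal and eye genes that define heads, such as elav, Syt1, norpA and Rh6, were detected in all 6. The male libraries differed from each other far more than the female libraries did. The standard deviation of log2 levels around the female mean was 0.179 to 0.21 in the female libraries, against 0.598 in male HFD 2, 1.02 in male HFD 4 and 1.48 in male HFD 3. The male and female counts were also deposited as separate tables, and an 18S ribosomal RNA pseudogene, CR41602, took 3 to 5.66% of the counts of male HFD heads and 0.24 to 0.26% of those of female HFD heads. Over all 24 libraries that share ran from 2.7 to 6% in males and from 0.121 to 0.355% in females. Sex therefore coincides with a difference in ribosomal RNA content, and a difference in library preparation cannot be told apart from sex in any comparison below.

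Of 10281 genes tested, 183 differed between the sexes at an adjusted p under 0.05 (1.78%), 46 higher in males (0.447%) and 137 higher in females (1.33%). These are the genes described below as called. The male-higher genes had a median log2 fold change of 3.27, and the female-higher genes one of -1.97. Among the called genes 177 differed at least 2-fold and 102 at least 4-fold, and the male and female libraries did not overlap for any of the 183. Over all genes tested, 38.4% had libraries that did not overlap (20.1% with males higher and 18.3% with females higher), 25.3% had an unadjusted p under 0.05, and the median log2 fold change was -0.0091. All values are log2 fold changes of males over females, and levels are CPM, the counts of a gene scaled to the size of its library with TMM factors, which are not corrected for gene length.

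**Figure D1:**
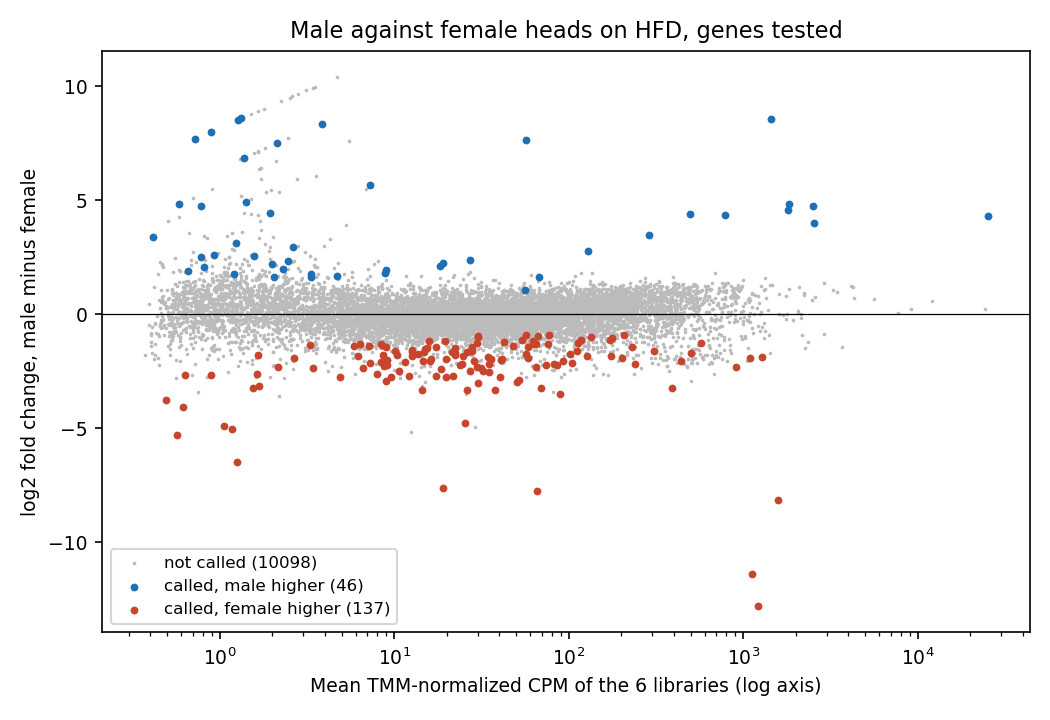
Each point is 1 of the 10281 genes tested, with the mean TMM-normalized CPM of the 6 HFD head libraries on a log axis and the log2 fold change of males over females. Blue points are the 46 genes called higher in males and red points the 137 called higher in females, and grey points between them were not called although many lie as far from 0.

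The number of calls rested on which libraries entered. Without male HFD 2 it was 4338, without male HFD 3 it was 319, without male HFD 4, female HFD 2 or female HFD 4 it was 0 in each case, and without female HFD 3 it was 1 (fit). At an unadjusted p under 0.05 those 4 smallest fits still held 1261 to 1459 genes. The direction of each of the 183 genes was the same in every one of these fits. Since their male and female libraries did not overlap, leaving out a library could hardly reverse it, so this adds no support. DESeq2 called 1100 genes, among them all 183, and limma-voom called 243, among them 182. A call thus marks a large difference measured against the wide spread of the male libraries, and a gene that was not called may still differ.

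**Figure D2:**
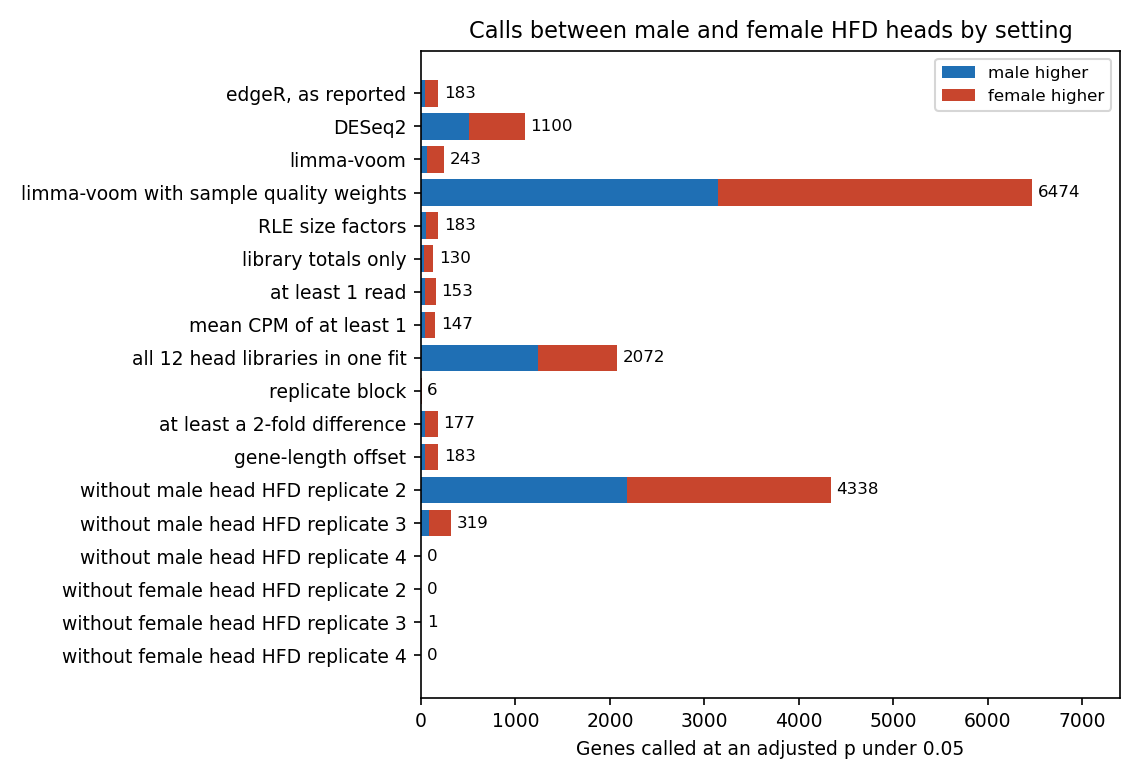
Bars give the number of genes called at an adjusted p under 0.05 between male and female HFD heads under each setting, blue for male higher and red for female higher, with the total at the end of each bar. The total ran from 0 without male HFD 4 to 6474 with limma-voom and sample quality weights, beside 183 for edgeR as reported.

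Male-higher genes began with the roX RNAs. The level of roX1 (X, 3857230 to 3862697 in the BDGP6.54 annotation) was 1605, 4496 and 2552 CPM in male HFD 2, 3 and 4, against 7.70, 7.83 and 7.07 CPM in the females. Its log2 fold change was 8.58 (SE 0.543, n = 3 and 3, adjusted p = 0.00761), and the lowest male library stood far above the highest female one. For roX2 the male levels were 55.5, 190.4 and 95.6 CPM and the female levels 0.154, 0.188 and 1.32 CPM, a log2 fold change of 7.66 (SE 0.951, adjusted p = 0.0201). Both RNAs were highest in male HFD 3, and roX2 was also uneven among females, with female HFD 4 the highest.

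The transcript of msl-2, whose protein is the male-specific subunit of the complex, was at 76.7, 116.9 and 77.9 CPM in males and 41.8, 44.98 and 44.2 CPM in females. The libraries did not overlap, with a log2 value of 1.05 (SE 0.211), but the adjusted p of 0.0727 missed the threshold. In RD heads the same gene passed it, at 0.75 (adjusted p = 0.0171). The other proteins listed with the complex had small values, 0.18 for the helicase mle (adjusted p = 0.454), 0.20 for msl-3 (adjusted p = 0.493) and 0.39 for the kinase JIL-1 (adjusted p = 0.335). In all, 2 of the 9 dosage compensation genes tested were called, beside 1.78% of all genes, and their median was 0.25. All 9 had a value above 0, or 7 of 9 when libraries were scaled by their totals only.

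None of the 11 sex determination genes was called by edgeR, DESeq2 or limma-voom, and 1 had an unadjusted p under 0.05. Their median was 0.0163. The gene Sxl stood at 324.7, 967.3 and 528.6 CPM in males and 483.5, 462.4 and 396 CPM in females, so that the female range lay inside the male range (0.44, adjusted p = 0.479). For dsx, the last gene of the splicing cascade, males had 46.4, 117.7 and 67.2 CPM and females 50.03, 86.7 and 45.8 CPM, again overlapping. These genes act through sex-specific splicing, and total counts per gene do not show which isoform was made.

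Among genes of the fat body and its secreted products, Cyp4d21 (sxe1, a cytochrome P450 of the male head fat body) was at 321.8, 764.1 and 500.6 CPM in males and 45.5, 62.8 and 33.6 CPM in females. The log2 fold change was 3.48 (SE 0.414, adjusted p = 0.0182). Its neighbour in the list, sxe2, was at 338, 125.8 and 210.1 CPM in males and 31.0, 35.9 and 31.0 CPM in females (2.78, SE 0.371, adjusted p = 0.0251). The male libraries ranked in opposite order for these genes, with male HFD 3 highest for Cyp4d21 and lowest for sxe2.

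Another P450, Cyp313a1, had one of the smallest p-values of the male-higher genes, with 621.3, 1403 and 816 CPM in males and 46.9, 52.1 and 36.7 CPM in females (4.39, SE 0.392, adjusted p = 0.014). Cyp4g1, which in oenocytes makes cuticular hydrocarbons, reached 24.98, 30.5 and 33.5 CPM against 5.95, 9.38 and 5.07 CPM (2.12, adjusted p = 0.0266). Of 8 oenocyte and pheromone genes tested, 2 were called, both male higher, beside 0.447% of all genes. In that list 5 genes had values above 0 and 3 below, and libraries did not overlap for 2 in each direction. Its summed level was 1204, 1726 and 1023 CPM in males and 3549, 3452 and 3322 CPM in females. Of the 65 P450 genes tested, 3 were called male higher and 3 female higher, beside 0.447% and 1.33% of all genes. The median was -0.28, with 43 of the 65 values below 0 and 22 above. With an offset for gene length fitted to each library, 36 were below 0 and 29 above. Libraries did not overlap for 23 genes, female higher, and for 8, male higher, beside 18.3% and 20.1% of all genes. The 3 called female higher were Cyp4e3 (-2.86, adjusted p = 0.0403), Cyp18a1, which inactivates ecdysone (-2.52, adjusted p = 0.0146), and Cyp6a22 (-1.80, adjusted p = 0.0364). Cyp4e3 varied most among females, at 90.1, 47 and 137.6 CPM, beside 8.98, 11.1 and 17.9 CPM in males.

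CG9377 was at 20.9, 6.63 and 15.3 CPM in males and 0.205, 0.328 and 0.293 CPM in females (5.66, SE 0.545, adjusted p = 0.014). The channel subunit ppk25, which acts in pheromone sensing and male courtship, had 3.80, 6.10 and 5.51 CPM in males and 1.49, 1.45 and 1.61 CPM in females (1.75, adjusted p = 0.0364). CheA87a had 19.5, 43.2 and 31.0 CPM against 8.31, 6.52 and 4.93 CPM (2.24, adjusted p = 0.039), although 16.6% of its exon bases overlap Lip3 on the other strand. The odorant receptor Or45a was called from under 1 CPM in any library (3.40, adjusted p = 0.0266), the only call among 29 odorant and ionotropic receptor genes tested.

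Of 30 cuticle protein genes of the Cpr family tested, 2 were called, both female higher, beside 1.33% of all genes. Of the 30 genes 20 had values below 0, and the median was -0.18. Cpr72Ea was at 2.41, 1.27 and 2.54 CPM in females and at 0.0961, 0 and 0.0672 CPM in males, where 3 reads were counted in all (ratio 32.5, interval 11.1 to 157, adjusted p = 0.0212). Its neighbour Cpr72Eb also had 3 male reads, beside 1.23, 0.844 and 0.732 CPM in females (ratio 14.7, interval 5.02 to 71.1, adjusted p = 0.0397). Both genes passed the filter on low counts through the female libraries, which largely sets the direction of these calls. TwdlG, a cuticle gene of the Tweedle family that the list does not hold, was male higher and the nearest to no change of all male-higher calls, at 68.3, 84.3 and 76.2 CPM against 34.8, 34.2 and 39.4 CPM (1.08, adjusted p = 0.0334).

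The only call among 54 small nuclear and nucleolar RNA genes tested was snRNA:U2:14B, at 0.961, 0.884 and 1.28 CPM in males and 0.257, 0.281 and 0.293 CPM in females (1.89, adjusted p = 0.0489). It is 1 of several near-identical U2 genes, so its share of their reads is uncertain.

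Transcripts of the male reproductive tract made up a further set. PebII (EbpII), a protein of the ejaculatory bulb, was at 3.46, 4.42 and 4.91 CPM in males, and 1 read was counted in all 3 female libraries together, a ratio of 261 with a 95% counting interval of 46.9 to 10300 (adjusted p = 0.011). The gene listed as Peb, which matched no entry of the annotation, was at 5.28, 8.13 and 9.61 CPM in males, again with 1 female read (ratio 471, interval 84.5 to 18600, adjusted p = 0.0109). Sfp60F, Sfp87B and Mst57Db had 0 reads in the female libraries. Against a floor of 3 reads over the 3 libraries, they were at least 54.4-fold, 52.2-fold and 29.4-fold higher in males. CG43147, a gene of none of the lists that was chosen after its values were seen, also had 0 female reads and was at least 36.4-fold higher in males. The seminal fluid protein Acp36DE followed at 1.73, 3.71 and 2.76 CPM against 0.103, 0 and 0.146 CPM (4.93, adjusted p = 0.0279).

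In the list of 28 accessory gland, ejaculatory duct and bulb genes in the tables, 9 were tested. Of these 4 were called, all male higher, beside 0.447% of all genes. PebII, Peb and Mst57Db had 0 or 1 female reads and Acp36DE had 5. All 4 passed the filter on low counts through the male libraries. A gene so rare in females could be tested only if it was higher in males. The direction and share of these calls were thus shaped by the filter. The intervals and floors given above cover counting error only. PebIII, a list member that heads of both sexes carry, was at 2861, 235.8 and 1439 CPM in males and 2822, 3038 and 2687 CPM in females and was not called (adjusted p = 0.448). Of 34 testis genes, 13 were tested and 0 were called by edgeR, with 8 at an unadjusted p under 0.05, while DESeq2 called 7 and limma-voom 2. Scaled to library totals only, the median summed level of the testis list in male heads was 0.565% of that in male bodies. With TMM factors the summed level was 62.7, 75.2 and 161.3 CPM in male HFD 2, 3 and 4 and 48.0 to 54.6 CPM in females. Male HFD 4 stood apart here: dj, a sperm tail gene, was at 0.865, 1.95 and 11.9 CPM, and ocn at 1.59, 2.74 and 11.3 CPM. The part of carried-over body tissue in the male-tract calls was not tested. Without male HFD 4 no gene was called, so the count of male-tract calls has no value there.

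Ribosomal RNA sequences were the most abundant male-higher features. CR41602 was at 28960, 70330 and 44080 CPM in males and 2387, 2458 and 2298 CPM in females (4.33, SE 0.484, adjusted p = 0.0162). The 28S pseudogene CR41609, with 3610, 5350 and 5452 CPM against 302.4, 295.5 and 297 CPM, gave the smallest p of the set (4.01, SE 0.297, adjusted p = 0.0107). CR40741 (4.34), CR40677 (4.76) and the unplaced CR40962 (4.85) and CR40963 (4.56) moved with them, as did the 5.8S gene CR40454 (2.37, adjusted p = 0.0191). All 4 of the tested pseudogenes that the annotation names as ribosomal RNA were called, a list put together after the values were seen. Near-identical ribosomal copies can share reads, so the split between these features is uncertain.

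Female-higher genes were led by the yolk proteins. Yp1 was at 0.624, 0 and 0.269 CPM in males and 2074, 2362 and 2853 CPM in females, a log2 fold change of -12.79 (SE 0.863, adjusted p = 0.00774). Yp2 was at 1.49, 0.354 and 0.538 CPM against 1738, 2340 and 2680 CPM (-11.38, SE 0.692, adjusted p = 0.00761). Yp3 was at 28.4, 1.68 and 3.23 CPM against 2319, 3295 and 3785 CPM (-8.12, SE 1.3, adjusted p = 0.0387). The lone male library with appreciable Yp3 was male HFD 2. All 3 genes lie on the X, and 54.3% of the exon bases of Yp1 overlap an antisense gene, CR45601.

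The gene fit, which codes for a secreted fat body peptide that acts on feeding, was at 0.817, 0.530 and 0.403 CPM in males and 94.2, 230.9 and 67.5 CPM in females (-7.75, SE 0.663, adjusted p = 0.012). Obp99a, an odorant-binding protein, had 0.336, 0 and 0.134 CPM against 25.66, 28.1 and 59.2 CPM (-7.63, SE 0.739, adjusted p = 0.014). Its relative Obp99b, at 15.9, 1.77 and 5.71 CPM in males and 8.21, 9.90 and 8.05 CPM in females, did not differ beyond the spread (-0.15, adjusted p = 0.888). The takeout gene, to, overlapped between the sexes as well, at 66.4, 165.4 and 126.4 CPM in males and 138.1, 179.5 and 115.8 CPM in females (-0.28, adjusted p = 0.605). In RD heads to was called female higher (-1.09, adjusted p = 0.0443), at 30.7 to 53.8 CPM in males and 75.1 to 112.4 CPM in females. Its interaction of sex and diet was not called (0.80, adjusted p = 0.907). In the list of 6 sex-biased head fat body genes, 2 were thus called in each direction on HFD. Over all genes 0.447% were called male higher and 1.33% female higher.

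**Figure D3:**
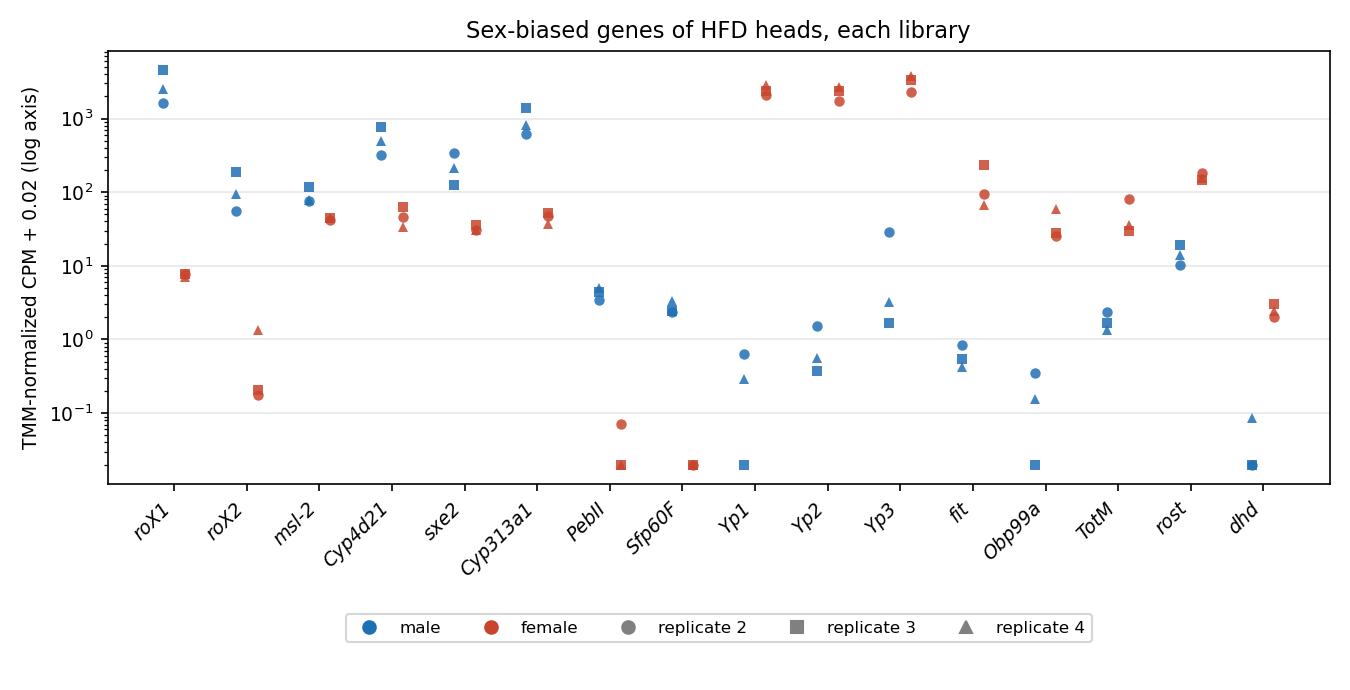
Points are the TMM-normalized CPM of 16 genes in each of the 6 HFD head libraries, with 0.02 CPM added for the log axis, blue for males and red for females, and marker shape for the replicate number. roX1 and roX2 stand high in the 3 male libraries and Yp1, Yp2 and Yp3 in the 3 female libraries, and points on the floor of the plot had 0 reads.

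Turandot genes, secreted humoral factors of the stress response, were higher in females. TotM was at 2.35, 1.68 and 1.34 CPM in males and 80.2, 30.0 and 36.2 CPM in females (-4.75, SE 0.495, adjusted p = 0.0146). TotC was at 12.5, 13.6 and 14.1 CPM against 207.7, 87.7 and 81.4 CPM (-3.23, adjusted p = 0.0212), and TotA at 80.8, 104.6 and 73.3 CPM against 563.2, 299.3 and 313.3 CPM (-2.18, adjusted p = 0.0303). Female HFD 2 was the highest for each of them, and 3 of the 4 Turandot genes tested were called, beside 1.78% of all genes. The Turandot genes are similar in sequence and reads shared between them make the split uncertain. Of 9 antimicrobial peptide genes, 0 were called by edgeR, DESeq2 or limma-voom, and 0 had an unadjusted p under 0.05, although each had a value below 0 (median -1.12). Drs, the antifungal peptide drosomycin, varied about as much within as between the sexes, at 29.0, 2.56 and 4.71 CPM in males and 49.1, 36.0 and 17.5 CPM in females (adjusted p = 0.317).

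Genes of lipid storage and use had lower values in males. Of 17 tested, 3 were called, all female higher, beside 1.33% of all genes. All 17 had values below 0, and the median was -1.06. With DESeq2 the number called was 10, without male HFD 3 it was 5, and without male HFD 2 it was 13. It was 0 without male HFD 4, female HFD 2 or female HFD 4, where no gene at all was called. Without female HFD 3 it was 0 as well, since fit was the only call. CG3523 (FASN1, fatty acid synthase) was at 572.7, 393 and 408.5 CPM in males and 1824, 1898 and 1482 CPM in females (-1.92, SE 0.26, adjusted p = 0.0259). Apoltp, a lipid transfer particle apolipoprotein, was at 96.9, 77.4 and 80.1 CPM against 320.8, 367.5 and 272.1 CPM (-1.92, SE 0.199, adjusted p = 0.0146). Lsd-2, the perilipin that coats and protects lipid droplets, was at 358.3, 333.5 and 321.5 CPM against 849.5, 841 and 742.4 CPM (-1.26, SE 0.189, adjusted p = 0.0327).

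Other members of the list had female levels above all male levels and yet missed the threshold. ACC, which makes malonyl-CoA for fatty acid synthesis, had 412.1, 192.1 and 243.4 CPM against 942.5, 715.4 and 844.4 CPM (-1.56, adjusted p = 0.0793). For the lipase bmm the values were 74.0, 76.1 and 82.1 CPM against 174.1, 100.6 and 136 CPM (-0.82, adjusted p = 0.126). Lsd-1, the second perilipin, had male values of 96.2, 18.5 and 32.6 CPM beside 229.8, 272.7 and 183.8 CPM (-2.22, adjusted p = 0.124), its male spread being the widest of the genes described in this list. Rfabg, the precursor of the main lipoprotein lipophorin, was at 1666, 3059 and 1485 CPM against 3610, 4303 and 3228 CPM (-0.84, adjusted p = 0.199). From the oenocyte list, the desaturase Desat1 was at 1069, 1599 and 866.4 CPM against 3422, 3320 and 3197 CPM (-1.49, adjusted p = 0.0744).

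Outside the list, and chosen after their values were seen, further lipid genes were called female higher. They were Jabba, a lipid droplet protein (-1.81, adjusted p = 0.033), bgm, an acyl-CoA synthetase (-2.16, adjusted p = 0.0489), Acox57D-d, a peroxisomal acyl-CoA oxidase (-2.25, adjusted p = 0.028), and CG7461 (Acadvl), a mitochondrial acyl-CoA dehydrogenase (-1.03, adjusted p = 0.0456). Malic enzyme, Men, a source of NADPH, had 322.3, 159.2 and 217.8 CPM in males and 765.2, 702.6 and 823.6 CPM in females (-1.71, adjusted p = 0.0489). Genes that make fat and genes that break it down were thus both among the female-higher calls.

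Hormone genes of nutrient balance were among the female-higher calls. Ilp3, an insulin-like peptide of brain neurosecretory cells, was at 3.70, 4.77 and 5.51 CPM in males and 17.1, 15.8 and 15.4 CPM in females (-1.79, SE 0.228, adjusted p = 0.0212). Ilp6, the insulin-like peptide of the fat body, was at 27.6, 27.2 and 21.1 CPM against 62.4, 64.8 and 50.9 CPM (-1.23, SE 0.196, adjusted p = 0.0387). Ilp5 had 11.2, 1.41 and 3.36 CPM in males and 12.6 to 14.1 CPM in females and was not called (adjusted p = 0.258). Ilp3 and Ilp6 were the 2 calls among 30 neuropeptide genes tested, beside 1.78% of all genes, and the median of the list was 0.30. Thor (4E-BP), a translational repressor that insulin signalling keeps low, was at 145.7, 113.9 and 112 CPM against 328.6, 404.6 and 278.8 CPM (-1.44, adjusted p = 0.0334).

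Further secreted signals were chosen after their values were seen. Limostatin, CG8317 (Lst), which lowers insulin secretion, was at 30.7, 26.4 and 21.0 CPM in males and 102.4, 71.7 and 86.7 CPM in females (-1.74, adjusted p = 0.0216). The growth-blocking peptides CG11395 (Gbp2, -1.84, adjusted p = 0.0244) and CG17244 (Gbp3, -2.20, adjusted p = 0.0374) were both called. All 6 imaginal disc growth factor genes, which code for chitinase-like secreted proteins, had values below 0, and 2 were called, Idgf1 (-2.12, adjusted p = 0.0147) and Idgf2 (-1.01, adjusted p = 0.0364). Of 24 neprilysin genes tested, which code for peptidases that cleave peptide hormones or relatives of them, 6 were called female higher. The calls ran from CG14526 (Nepl21, -1.31) to CG14528 (Nepl18, -2.73), and 20 of the 24 genes had values below 0. Over all genes tested 1.33% were called female higher, and these families were put together after the calls were seen. The angiotensin-converting enzyme homologue Ance-4 was called as well (-2.37, adjusted p = 0.0182).

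Several female-higher genes of large effect belong to none of these groups. rost, needed for myoblast fusion in the embryo, was at 10.1, 19.5 and 13.98 CPM in males and 184.2, 146.8 and 157 CPM in females (-3.49, SE 0.283, adjusted p = 0.0109). tobi, a glucosidase gene of the fat body that responds to insulin-producing cells and to diet, was at 10.8, 2.83 and 6.59 CPM against 59.1, 74.3 and 73.0 CPM (-3.33, SE 0.472, adjusted p = 0.0287). Myo61F, an unconventional myosin, was at 3.99, 1.15 and 2.55 CPM against 29.7, 24.2 and 25.2 CPM (-3.33, SE 0.434, adjusted p = 0.0235). CG7560 had the lowest p of chromosome arm 3L, with 7.45, 6.63 and 6.05 CPM against 23.4, 29.9 and 24.2 CPM (-1.94, SE 0.205, adjusted p = 0.0147).

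Both ornithine decarboxylase genes, whose enzyme starts polyamine synthesis, were called. Odc1 was at 8.07, 2.21 and 3.76 CPM in males and 45.9, 56.1 and 40.9 CPM in females (-3.32, SE 0.48, adjusted p = 0.0303). Odc2 was at 2.98, 3.80 and 2.89 CPM against 22.7, 21.3 and 19.4 CPM (-2.71, SE 0.217, adjusted p = 0.0109), and was far more even among males than Odc1. The GATA factor srp, a regulator in blood cells and fat body, was also female higher (-1.92, adjusted p = 0.0293). So was eater, a phagocytosis receptor of blood cells (-1.18, adjusted p = 0.039). Both were chosen after their values were seen.

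Ovarian germline genes did not share a direction. Of 14 tested, 8 had values above 0 and 6 below, or 7 and 7 when libraries were scaled by their totals only, and the median was 0.15. Libraries did not overlap for 9 of them, 5 male higher and 4 female higher, beside 38.4% of all genes tested (20.1% and 18.3%). The summed level of the list was 135.1, 309.3 and 213 CPM in males and 124.3 to 143 CPM in females, with the female range reaching into the male range. dhd, a thioredoxin of the female germline, was at 2.001, 3.002 and 2.44 CPM in females, and 1 read was counted in the males, a ratio of 117 (interval 20.9 to 4610, adjusted p = 0.0146). It was the only call of the list. yl, the yolk protein receptor of the oocyte, was called from 0.770, 1.60 and 0.975 CPM against 1 male read (ratio 52.3, interval 9.39 to 2070, adjusted p = 0.0387). The oocyte gene osk had female values of 1.49, 1.88 and 0.780 CPM beside 0.192, 0.177 and 0 CPM (adjusted p = 0.0793). Of its exon bases 78.5% overlap lncRNA:osk on the same strand, so the assignment of its reads is uncertain. By contrast orb, another list member, was at 57.4, 217.3 and 116.1 CPM in males and 44.7 to 56.1 CPM in females (1.37, adjusted p = 0.164). Scaled to library totals only, the median summed level in female heads was 1.91% of female bodies for the ovarian list and 0.854% for eggshell genes. In males the share was 10.6% for the ovarian list, but male bodies hold no ovary. Of the eggshell genes 0 of 3 tested were called by edgeR or limma-voom, 1 by DESeq2, and 2 had an unadjusted p under 0.05. The part of ovarian tissue in the calls of dhd and yl was not tested. Both genes passed the filter on low counts through the female libraries, which largely sets their direction.

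Broad gene groups had values mostly on one side of 0 without being called. Of 17 neuronal genes, 15 had values above 0, with a median of 0.96, and 0 were called by edgeR or limma-voom, although DESeq2 called 4. An unadjusted p under 0.05 was found for 12 of them, beside 25.3% of all genes. Libraries did not overlap for 14, male higher, beside 20.1% of all genes. Syt1, the calcium sensor of synaptic vesicles, was at 1518, 4692 and 2428 CPM in males and 1292, 1304 and 1203 CPM in females (1.18, adjusted p = 0.173), and elav, an RNA-binding protein of all neurons, at 203.9, 684.9 and 350.6 CPM against 181.1, 186.3 and 152.7 CPM (1.25, adjusted p = 0.167). In each case male HFD 2 lay just above the females and male HFD 3 far above them. Of the exon bases of elav 27.9% overlap lncRNA:enrr on the same strand.

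Cytoplasmic ribosomal protein genes had values on the other side of 0. Of 84 tested, 83 had values below 0, 77 had libraries that did not overlap, female higher, beside 18.3% of all genes, and the median was -1.76. None was called by edgeR, though DESeq2 called 26, limma-voom 3, and 36 had an unadjusted p under 0.05. Their summed level was 41290, 17240 and 21280 CPM in males and 61660 to 73300 CPM in females. RpL32 reached 333.5, 8.22 and 142.5 CPM in males beside 459.9, 623 and 619.3 CPM in females (adjusted p = 0.297). Photoreceptor genes had 17 of 20 values above 0 (median 0.57) and muscle genes 12 of 17 below 0 (median -0.47), with 0 called by edgeR or limma-voom in both lists, 6 and 5 called by DESeq2, and 7 and 9 at an unadjusted p under 0.05. Genes of the eye did not share one order of libraries: norpA, the phospholipase C of phototransduction, was at 1108, 3228 and 1669 CPM against 629.4 to 716.5 CPM, while the opsin Rh6 was at 419.8, 46.7 and 154.8 CPM against 282.2 to 289 CPM.

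**Figure D4:**
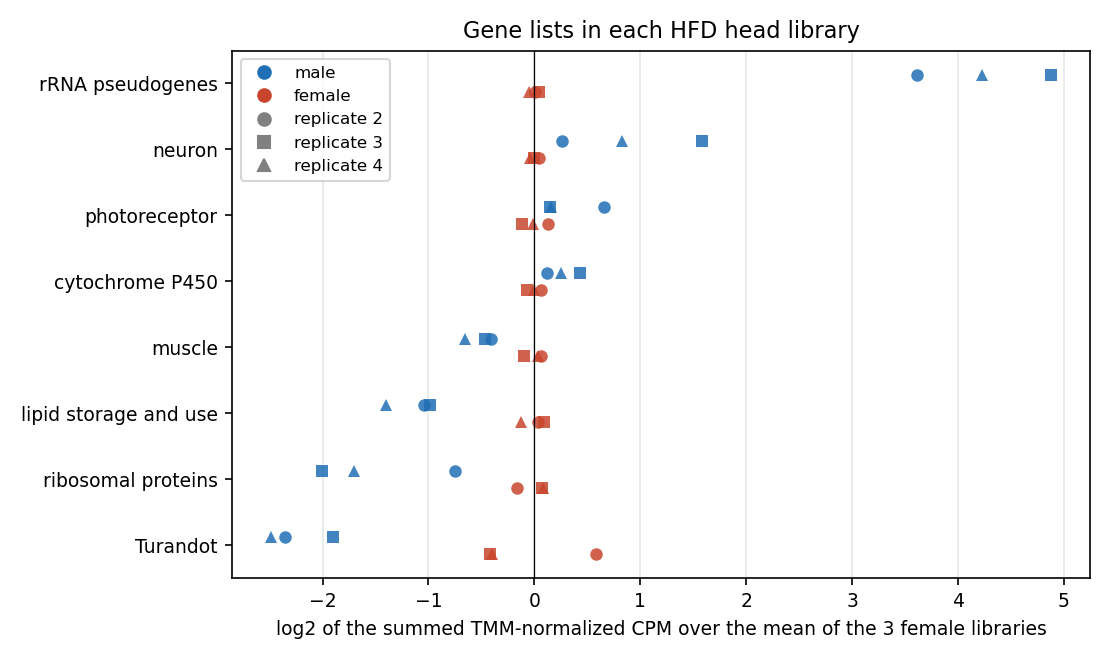
For 8 gene lists, points give the log2 of the summed CPM in each HFD head library over the mean of the 3 female libraries, blue for males and red for females, with marker shape for the replicate number. Male libraries range from 0.262 to 1.58 for neuronal genes and from -2.01 to -0.747 for ribosomal protein genes, while the lipid list is between -1.4 and -0.982 in all 3.

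These values also varied with gene length in the male libraries. From the shortest to the longest of 5 length classes of about equal size, the median log2 fold change was -0.0637, -0.166, -0.134, 0.0478 and 0.244. In male HFD 3 the median deviation from females was -0.479 for genes of 1104 to 1703 bases and 0.505 in the longest class, against 0.0551 and 0.028 in male HFD 2. With an offset for gene length fitted to each library the number of calls was 183 again, of which 152 were among the reported 183, and the neuronal median was 0.67 and that of ribosomal proteins -1.72. The part of RNA quality or library preparation in these groups was not tested.

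By chromosome, 44 of the called genes lay on the X, 18 male higher and 26 female higher (2.62% of 1677 tested), against 1.61% of the 8374 genes on chromosomes 2 and 3. Of the 18 male-higher ones 5 were the ribosomal RNA features of the X, whose abundance coincides with the separate male and female tables, and without them 39 of 1672 genes were called (2.33%). The median log2 fold change was -0.14 for the X and 0.0037 for chromosomes 2 and 3. When libraries were scaled by their totals only, both medians were lower, at -0.26 and -0.12. In RD heads the X had a median of -0.14 too. Genes of chromosome 4 had a median of 0.95 over 90 genes, 96.7% of them above 0, and none was called; this rested on male HFD 3 and 4, with library medians of 1.67 and 0.77, while male HFD 2 was at 0.0515. None of the 9 Y-linked fertility genes in the tables passed the filter on low counts.

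The same contrast in RD heads, which shares no library with the HFD comparison, called 788 of 10151 genes (7.76%), 346 male higher (3.41%) and 442 female higher (4.35%). The common biological coefficient of variation was 0.201 there and 0.336 on HFD. Of the 183 genes called on HFD, 179 were tested on RD, and all 179 had the same direction. Both diets called 137 genes in the same direction, which is 74.9% of the HFD calls and 17.4% of the RD calls. roX1 was at 7.93 on RD, Yp1 at -12.41, rost at -3.52 and Cyp313a1 at 3.07. The male-higher calls had a median of 3.27 on HFD and 3.02 on RD, and the female-higher calls -1.97 and -1.32.

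**Figure D5:**
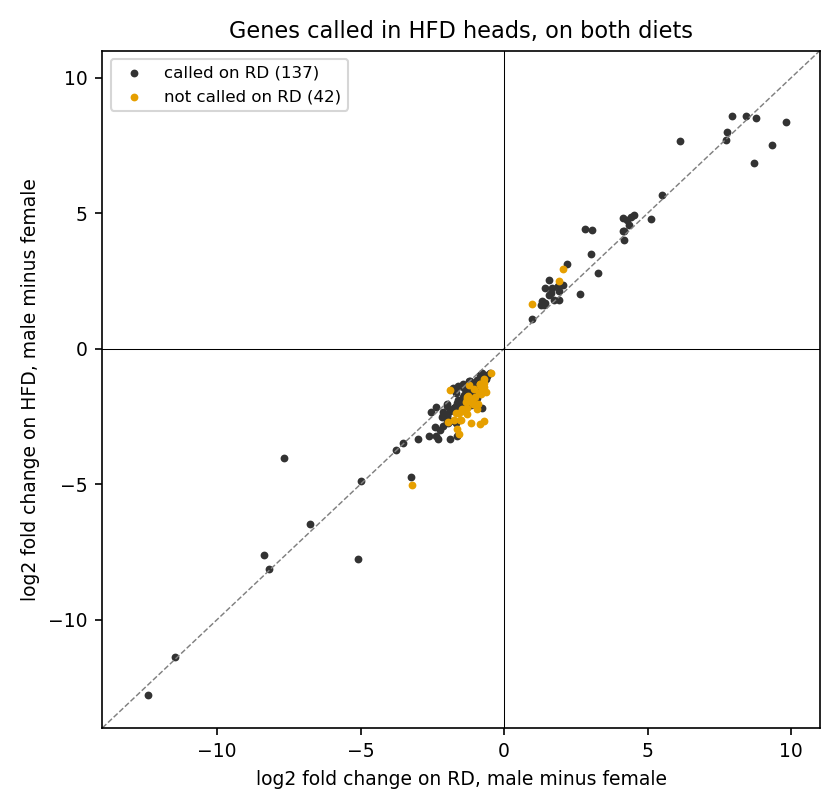
Each point is 1 of the 179 genes called in HFD heads and tested in RD heads, with the log2 fold change of males over females on RD on the horizontal axis and on HFD on the vertical axis; the dashed line marks equal values. Dark points are the 137 genes also called on RD and orange points the 42 that were not, and all lie in the quadrants of equal sign.

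No difference between the diets in the sex difference was detected for any gene by edgeR. The interaction of sex and diet over the 12 head libraries gave 0 calls among 10527 genes with edgeR, DESeq2 or limma-voom, 131 genes at an unadjusted p under 0.05 (1.24%) and a smallest adjusted p of 0.907 with edgeR, while limma-voom with sample quality weights called 66. In HFD heads 152 of the 179 genes had a larger absolute value than in RD heads, a direction favoured by choosing genes for their HFD result. The gene fit was at -7.75 on HFD and -5.10 on RD, with male levels of 0.403 to 0.817 CPM on HFD and 2.77 to 8.43 CPM on RD (interaction -2.67, adjusted p = 0.907). TotC was at -3.23 and -1.64, with male levels of 12.5 to 14.1 CPM on HFD and 24.5 to 51.9 CPM on RD (interaction -1.60, adjusted p = 0.907).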

How the data were processed

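The authors deposited whole-number counts of reads per gene for 16727 genes, one table for each sex, with gene lengths. By the study's methods, stranded mRNA libraries were read as paired ends and aligned with TopHat; the submitters' processing notes name featureCounts and dm6. The methods name a mouse gene annotation, and the versions, the strand setting and the treatment of multi-mapping reads are not given in the sources used here. Symbols were matched to BDGP6.54 (16445 of 16727). Counts were tested with edgeR 4.0.16 in R 4.3.3 (quasi-likelihood, TMM, filterByExpr at its defaults), with Benjamini-Hochberg adjustment at 0.05. The SE is the log2 fold change over the square root of F. To be tested, a gene needed a CPM equal to 10 counts at the median library size in as many libraries as the smallest group held. It also needed 15 counts in total. A gene could therefore pass through the libraries of either sex alone. Alternatives used DESeq2 1.42.0, limma 3.58.1, other scalings and filters, and leaving out libraries. The test was tried on simulated data. Their spread was equal in all libraries and smaller than that of HFD heads, so the trial does not show how the test performs with the uneven male libraries.

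Genes were named if called with libraries that did not overlap: the 10 largest changes in each direction with a mean of at least 5 CPM in the higher sex, the 5 smallest p in each direction, the lowest p of each chromosome arm, and members of the gene lists described; others are said to be chosen later, as are CG43147, Sfp60F, Sfp87B, yl, CheA87a, TwdlG, Ance-4 and Thor. The comparison and the lists were chosen with earlier results of these data known. Same-numbered libraries of the sexes did not deviate together (correlations -0.241, 0.0252 and -0.0869 across genes), so the numbers were not treated as pairs.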

Additional observations from a re-analysis of the deposited data

How the results depend on the processing

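The 183 calls between HFD heads became 1100 with DESeq2, 6474 with limma-voom and sample quality weights, and 2072 with all 12 head libraries in one fit. With a replicate block the count was 6, all of them among the 183. Leaving out 1 library gave 0 to 4338. The other settings (limma-voom, RLE, totals only, other filters, at least 2-fold, a gene-length offset added after seeing the data) gave 130 to 243. Scaling by totals only moved the median of all genes to -0.136. Each of the 183 genes that a setting tested had the same direction in it, which libraries that do not overlap largely fix in advance.

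In RD heads the 788 calls became 1642 with DESeq2, 6099 with quality weights, 324 with all 12 libraries, 357 at 2-fold, 3832 with a replicate block (a fit with 1 residual degree of freedom, since the males are numbered 1, 2 and 3 and the females 2, 3 and 4, so that male 1 and female 4 have no partner), and 56 to 5093 with 1 library left out. The interaction gave 66 calls with quality weights and 0 in all other settings.

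The log2 value of uncalled genes near 0 changed sign for to (0.0142 with the length offset), dsx (-0.0754 with the length offset), and with a library left out for to (-0.621 to 0.00552), Sxl (-0.104 to 0.733), dsx (-0.137 to 0.675) and Obp99b (-1.2 to 0.282). The causes were not tested. The number of libraries per sex (3), a wide male spread and the ribosomal RNA share limit what these counts show.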
